A study of Callithrix jacchus with 3 samples.

Results

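let-7 miRNAs were examined in adult testis of a small primate, the common marmoset (Callithrix jacchus). One small RNA library came from a precipitate of the PIWI protein MARWI (MARWI-IP), and the other held total small RNA. Reads were given to let-7a-5p, let-7b-5p, let-7f-5p, let-7g-5p or let-7i-5p when their first 18 nt equalled those of the mature miRNA. MARWI-IP held reads of 4 of these 5 members among 4144403 different 5′ ends of 18 nt. Total small RNA held all 5 among 1671901. All samples were of genotype Wild Type. MARWI, the marmoset form of mouse MIWI, was precipitated from testes labelled with ages of 41 and 51 months, and the 2 replicates were deposited as 1 column. Total small RNA came from testis of 41 months and was size-selected on a gel. RNA-seq carried both ages, also in 1 column. No group therefore had a replicate spread, and no test between groups was made. The intervals given are exact 95% intervals and cover counting error alone, since no molecular barcodes are described for these libraries.

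let-7 is one of the oldest known miRNA families in animals. Its 5p strand is cut from a hairpin precursor by Dicer and loaded into an Argonaute protein, where the seed, bases 2 to 8, pairs with target mRNAs. The family is known for restraining growth-promoting genes in differentiated cells, and LIN28 proteins are known to block its maturation in stem cells. PIWI proteins such as MARWI are a separate branch of the Argonaute family and bind piRNAs, which are longer than miRNAs and do not need Dicer. The mature forms of the members are shown first, because the family is told apart by a few bases. Each is the commonest 22-nt read of its member in total small RNA, with T for U and the seed in capitals.
let-7a-5p: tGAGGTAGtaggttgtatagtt
let-7b-5p: tGAGGTAGtaggttgtgtggtt
let-7f-5p: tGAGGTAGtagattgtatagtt
let-7g-5p: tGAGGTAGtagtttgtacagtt
let-7i-5p: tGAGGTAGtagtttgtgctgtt
Their relatives outside the member list follow, since 1 of them cannot be separated from let-7a-5p by 18 bases.
let-7c-5p: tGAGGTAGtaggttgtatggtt
let-7d-5p: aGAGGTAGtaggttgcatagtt
let-7e-5p: tGAGGTAGgaggttgtatagtt
miR-98-5p: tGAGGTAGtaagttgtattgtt

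The seed was the same in all of these by choice, since each start was required to hold it and the bases that mark its miRNA. With positions counted from the 5′ end and the let-7a-5p base written first, let-7f-5p differed from let-7a-5p by G12A, let-7b-5p by A17G and A19G, and let-7g-5p by G12T and T18C. let-7i-5p differed by G12T, A17G, T18C and A19T. let-7c-5p differed by A19G alone, so the first 18 nt do not distinguish it from let-7a-5p. The other members, and let-7d-5p, let-7e-5p and miR-98-5p, differed from let-7a-5p and from each other within 18 nt. Reads with exactly 1 mismatch to the start of a member, and nearer to it than to any relative, numbered 1 in total small RNA, against 38232 exact reads. A further 3 reads lay equally near to more than 1 start.

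The first question was how many reads of each member total small RNA contained. How these reads relate to the amount of each RNA in the testis was not tested. With the reads of let-7c-5p included, let-7a-5p had the most reads of the members and let-7b-5p the fewest, 3.96-fold apart. The file of total small RNA held 14138166 reads of 20 to 51 nt. let-7a-5p had 12215 reads (11999 to 12434), or 864 reads per 1000000 reads (RPM). let-7f-5p had 9633 reads (9442 to 9827), or 681 RPM. let-7g-5p had 8518 reads (8338 to 8701), or 602 RPM. let-7a-5p, with the reads of let-7c-5p included, lay 1.27-fold above let-7f-5p, and let-7f-5p 1.13-fold above let-7g-5p. let-7i-5p had 4783 reads (4648 to 4921) and let-7b-5p had 3083 (2975 to 3194), or 338 and 218 RPM. With let-7c-5p counted under let-7a-5p, the counting intervals of neighbours in this order did not overlap. Whether the order would hold in a second animal cannot be told from 1 library.

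Base 19 separated let-7c-5p from let-7a-5p in every read, since none was shorter than 20 nt. Of the 12215 reads, 9846 had A at position 19, as in let-7a-5p, and 2369 had G, as in let-7c-5p. No read had C or T there. let-7c-5p was thus 19.4% (18.7% to 20.1%) of the reads that share the let-7a-5p start. With them set apart, let-7a-5p, at 9846 reads (9652 to 10042), was close to let-7f-5p, and their intervals overlapped. let-7c-5p lay below the lowest listed member, let-7b-5p. The relatives outside the list were scarcer, with 887 reads of let-7d-5p, 578 of miR-98-5p and 556 of let-7e-5p. The 5 members, with let-7c-5p counted under let-7a-5p, made up all but 2021 of the 40253 reads of the family.

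**Figure D1:**
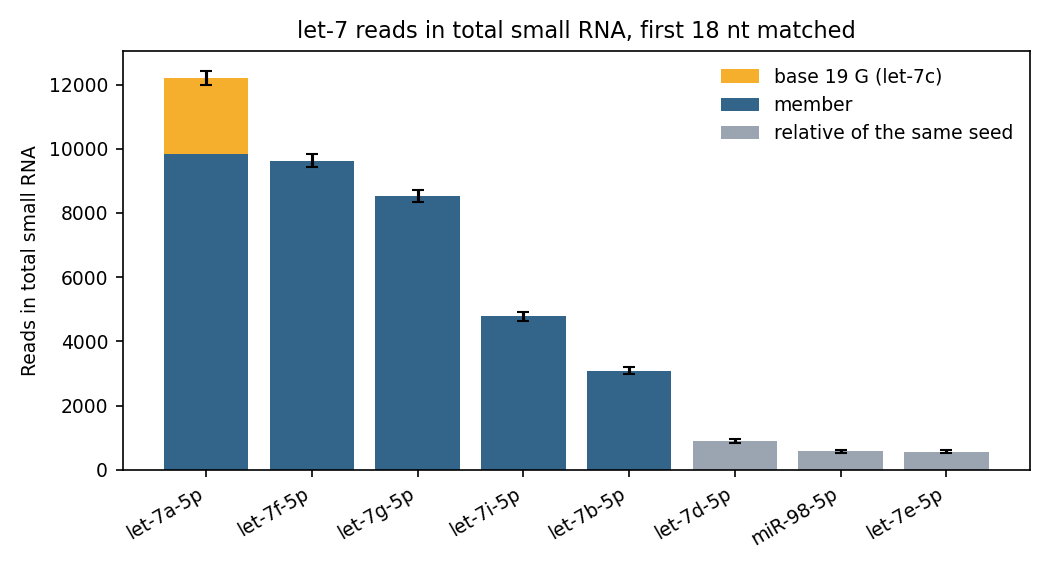
Reads of each let-7 miRNA in total small RNA (y axis, number of reads; x axis, miRNA), with exact 95% Poisson intervals for counting error in 1 library. The let-7a-5p bar of 12215 reads is divided at base 19 into 9846 reads with A and 2369 with G (let-7c), and the relatives let-7d-5p, miR-98-5p and let-7e-5p all lie below 1000 reads.

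The 5 members together were 0.270% (0.268% to 0.273%) of total small RNA, a library with 12792323 reads of 24 to 33 nt, the range in which piRNAs lie. To set them among other miRNA-like RNAs, 5′ ends with at least 100 reads, of which at least 50% were 20 to 23 nt long, were taken as miRNA-length ends. There were 350 such ends, named here by nothing but their length, with 789372 reads. let-7a-5p, counted together with let-7c-5p, ranked 14th among them, let-7f-5p 19th, let-7g-5p 23rd, let-7i-5p 43rd and let-7b-5p 59th. Together the members held 4.84% of their reads.

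The next question was where the members end. All 5 were mainly 22 nt long, and they differed in how often the 3′ end lay short of or beyond this point. The 22-nt form was 86.3% (85.3% to 87.3%) of let-7i-5p reads and 61.9% (60.1% to 63.6%) of let-7b-5p reads. The other 3 members lay between, at 77.7% for let-7g-5p, 76.1% for let-7f-5p and 74.3% for let-7a-5p. Over the 5 members together the share was 76.0%, against 36.5% among all reads of 20 to 23 nt. Apart from the let-7c-5p reads counted under let-7a-5p, the shorter reads of each member were exact starts of its 22-nt form.

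let-7b-5p stood apart by its longer form. Reads of 23 nt or more were 24.2% (22.7% to 25.7%) of let-7b-5p, and 742 of these 745 reads were 23 nt long. In let-7a-5p they were 4.82% (4.45% to 5.22%), in let-7f-5p 3.58% (3.22% to 3.97%) and in let-7g-5p 3.45% (3.07% to 3.86%). let-7i-5p had the fewest, 1.13% (0.849% to 1.47%). The intervals of let-7f-5p and let-7g-5p overlapped, and those of let-7b-5p and let-7i-5p overlapped with none of the others. Reads of 20 and 21 nt went another way, at 20.9% of let-7a-5p, 20.3% of let-7f-5p and 18.9% of let-7g-5p but 13.9% of let-7b-5p and 12.5% of let-7i-5p. let-7b-5p therefore had 173 longer reads for every 100 shorter ones, and let-7i-5p had 9.

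Both RNAs that share the let-7a-5p start could be examined apart. Reads with A at position 19 were of 20 or 21 nt in 22.3% (21.5% to 23.2%), and reads with G there, as in let-7c-5p, in 14.9% (13.5% to 16.4%). The longer forms were 4.49% (4.09% to 4.92%) and 6.21% (5.27% to 7.25%). These RNAs, 1 base apart, thus differed in 3′ ends by more than the counting error, with the end of let-7c-5p lying further out.

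**Figure D2:**
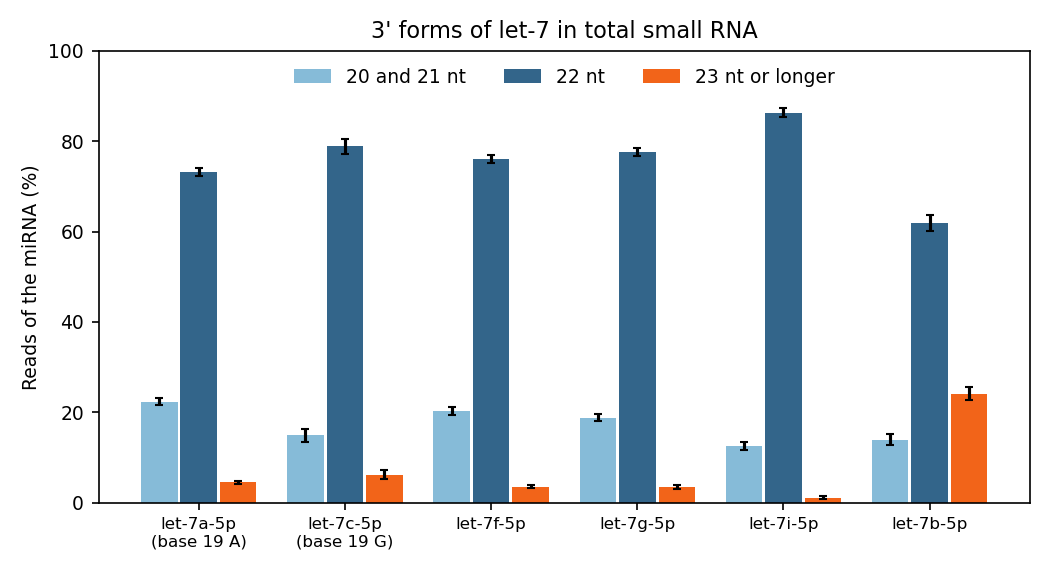
Share of the reads of each let-7 miRNA in total small RNA (y axis, percent) that were 20 and 21 nt, 22 nt, or 23 nt and longer, with exact 95% binomial intervals and let-7a-5p divided at base 19. The 22-nt form leads in all, it is highest in let-7i-5p (86.3%), and the longer form is highest in let-7b-5p (24.2%).

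The bases past position 22 were few in kind. Base 23 was T in all 589 longer reads with the let-7a-5p start, in all 745 of let-7b-5p and in all 294 of let-7g-5p, and G in all 54 of let-7i-5p. Only let-7f-5p had more than 1 base there, T in 316 and G in 29 of 345 reads. In mammals let-7f is made from more than 1 hairpin, and these continue differently after the mature sequence. No read of a member carried a base 23 outside these. In total small RNA only 1 read had 1 mismatch to the start of a member, against 38232 exact reads. The small number of kinds of base past position 22 thus describes the deposited list, which held few mismatched let-7 starts. The deposited lists give no mapping rule, and whether reads with added, unmatched 3′ bases were removed before deposit was not tested.

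The comparison of MARWI-IP with total small RNA asked which let-7 reads were recovered with MARWI. It was limited to 24 to 33 nt, the lengths both files hold, and left out 99.9% of the let-7 reads of total small RNA. In this range MARWI-IP held 110209593 reads and total small RNA 12792323. The members had 88 reads in MARWI-IP, against 36 in total small RNA, which is 0.798 and 2.81 RPM of these lengths. let-7a-5p had 58 MARWI-IP and 23 total reads, let-7f-5p 12 and 7, and let-7g-5p 16 and 2. let-7i-5p had 2 and 1. let-7b-5p had 0 reads in MARWI-IP, which allows a share of up to 3.35e-06%, and 3 in total small RNA. No fold is given for let-7i-5p or let-7b-5p. All 58 MARWI-IP reads with the let-7a-5p start had A at position 19, and none had the G of let-7c-5p.

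let-7 reads of these lengths took a lower share of MARWI-IP than of total small RNA, as did most other miRNA-length ends, a class chosen by reads in total small RNA. The share of the 5 members in MARWI-IP was 0.284 times that in total small RNA (0.190 to 0.431). The ratio was 0.293 (0.178 to 0.497) for let-7a-5p, 0.199 (0.0722 to 0.597) for let-7f-5p and 0.929 (0.218 to 8.32) for let-7g-5p. Among ends with at least 10 reads in both files together, 88.0% of 117 miRNA-length ends and 24.8% of all 392787 ends had a ratio below 0.5. Members are not counted against these shares, since let-7f-5p and let-7g-5p reached 10 reads through MARWI-IP alone. Over distinct sequences, each counted once, the ratio was 0.560 for let-7a-5p, 0.933 for let-7f-5p and 0.700 for let-7g-5p. The share of all ends below 0.5 was not computed over distinct sequences. The median ratio was 0.00616 over these miRNA-length ends and 1.16 over all ends. The miRNA-length ends were chosen by their reads in total small RNA, the denominator of the ratio. An end could also reach 10 reads through that file alone. Low ratios were thus favoured by the choice, and these ends are no neutral background. The samples used here include no control precipitation, and the libraries also differed in the ages of the animals and in the gel step. What these differences did to the ratios was not tested.

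The lengths of these reads also differed between the libraries. In MARWI-IP, 47 of the 88 let-7 reads were 30 nt long and 16 were 29 nt long. In total small RNA, 31 of the 36 were 24 nt long, that is, 2 bases past the mature end. At 24 and 25 nt the members had 5 MARWI-IP and 31 total reads, a ratio of 0.0187 (0.00568 to 0.0486). At 26 to 33 nt they had 83 and 5 reads, a ratio of 1.93 (0.793 to 6.09), whose interval includes 1. Neither length class is described by the ratio over the whole range. For let-7a-5p the ratio was 0.0174 (0.00331 to 0.0587) from 3 and 20 reads at 24 and 25 nt, and 2.13 (0.691 to 10.6) from 55 and 3 reads at 26 to 33 nt. let-7f-5p had 2 and 6 reads, a ratio of 0.0387 (0.00382 to 0.216), and then 10 and 1 reads, a ratio of 1.16 (0.165 to 50.4). The 16 MARWI-IP reads of let-7g-5p were all of 26 nt or more, against 1 such read in total small RNA, a ratio of 1.86 (0.289 to 77.9).

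Ratios of miRNA-length ends were also lower at 24 and 25 nt than at 26 to 33 nt. At 24 and 25 nt, 97.0% of 99 such ends with at least 10 reads had a ratio below 0.5, against 17.1% of all ends. At 26 to 33 nt the share was 40.0% of 45 such ends, against 24.7% of all ends. Members are not counted here, since those with at least 10 reads reached this through 1 file alone. That file was total small RNA in the shorter class and MARWI-IP in the longer one. The median ratio of miRNA-length ends was 0.00112 in the shorter and 0.664 in the longer class. The classes held different sets of ends, each with its own minimum of 10 reads, and no end was followed across both. Whether the difference between the classes is particular to let-7 was therefore not tested.

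**Figure D3:**
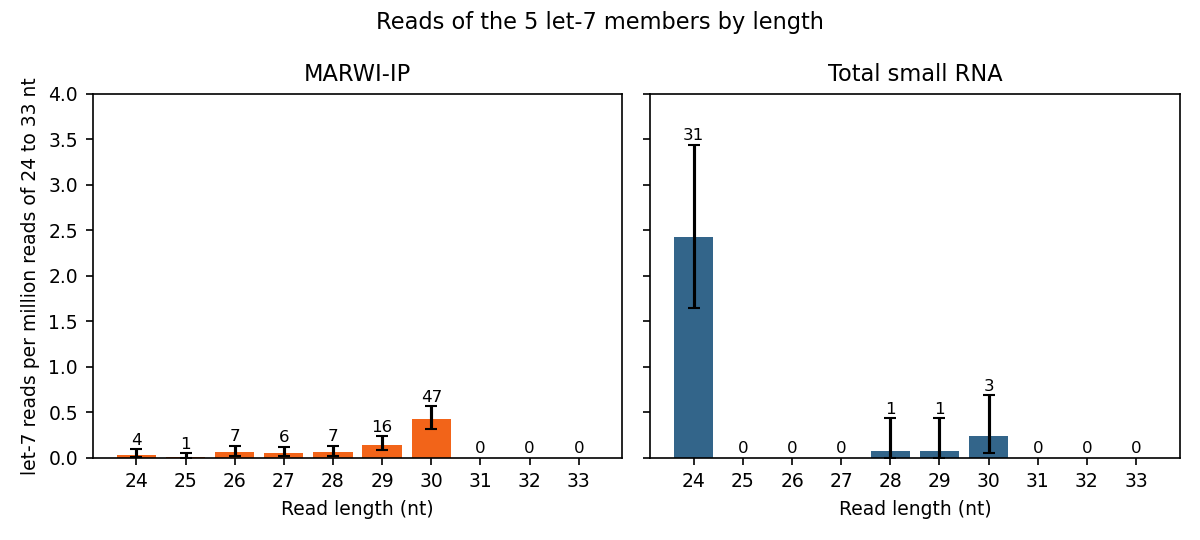
Reads of the 5 let-7 members per 1000000 reads (RPM) of 24 to 33 nt (y axis) by read length in nt (x axis), in MARWI-IP (left) and total small RNA (right), with exact 95% Poisson intervals and the number of reads above each bar. MARWI-IP reads peak at 30 nt with 47 reads, and total reads at 24 nt with 31.

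**Figure D4:**
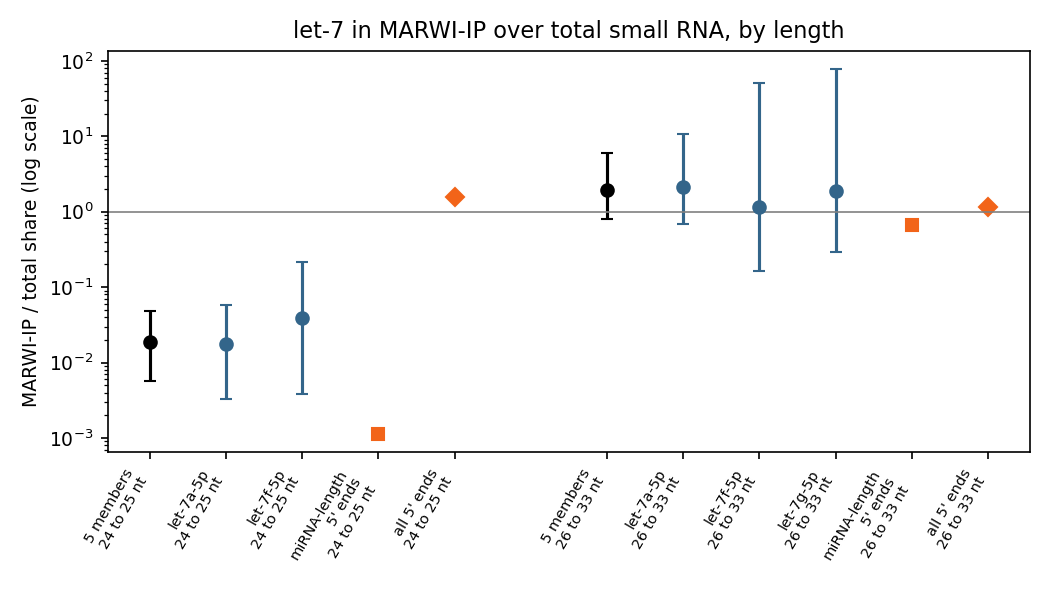
Share of reads in MARWI-IP divided by the share in total small RNA (y axis, log scale) for let-7 reads of 24 and 25 nt and of 26 to 33 nt, with exact 95% intervals, beside the medians of miRNA-length 5′ ends and of all 5′ ends with at least 10 reads. The 5 members lie at 0.0187 in the shorter class and at 1.93 in the longer one.

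The long MARWI-IP reads ran from the mature let-7 start past its 3′ end. The longest form of each continuation is shown, to let the long reads be read base by base, with the bases past position 22 in capitals. let-7f-5p has one for T and one for G at position 23.
let-7a-5p, 30 nt: tgaggtagtaggttgtatagttTTAGGGTC
let-7a-5p, 29 nt: tgaggtagtaggttgtatagttTGGGGCT
let-7f-5p, T at 23, 30 nt: tgaggtagtagattgtatagttTTAGGGTC
let-7f-5p, G at 23, 30 nt: tgaggtagtagattgtatagttGTGGGGTA
let-7g-5p, 30 nt: tgaggtagtagtttgtacagttTGAGGGTC
let-7i-5p, 29 nt: tgaggtagtagtttgtgctgttGGTCGGG

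The 30-nt let-7a-5p form had 35 reads in MARWI-IP, against 2 in total small RNA. Scaled to the reads of 24 to 33 nt, this was 0.318 RPM (0.221 to 0.442) against 0.156 RPM (0.0189 to 0.565), with overlapping intervals. The counts that follow are not scaled, and MARWI-IP was the deeper library. The 30-nt let-7g-5p form had 8 and 0, and the 30-nt let-7f-5p forms had 3 and 1 with T at position 23 and 1 and 0 with G. The 29-nt let-7i-5p form had 2 and 0. All other long MARWI-IP reads of a member were shorter versions of the forms shown. In let-7a-5p 56 of the 58 MARWI-IP reads belonged to the first continuation and 2 to the second. Reads of 24 nt in total small RNA with the let-7a-5p start were 14 of the first continuation and 5 with A at position 24, as well as 1 of let-7c-5p. Whether these bases equal the hairpins of the marmoset genome was not analysed here.

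Reads of 30 nt were 53.4% (42.5% to 64.1%) of the let-7 reads of MARWI-IP, against 32.1% of all its reads and 25.4% (24.7% to 26.2%) of the reads of 100 other miRNA-length ends. Of the 47 let-7 reads of 30 nt, 35 were copies of 1 let-7a-5p sequence, which the interval treats as separate reads. let-7g-5p had 8 of its 16 reads at 30 nt, let-7f-5p 4 of 12 and let-7i-5p 0 of 2, too few to show an excess without let-7a-5p. Reads of 29 nt were 18.2% (10.8% to 27.8%) of the let-7 reads, against 33.7% of all MARWI-IP reads and 15.5% (14.8% to 16.1%) of the reads of the other miRNA-length ends, a share inside the let-7 interval. In let-7f-5p the G continuation was 7 of 12 MARWI-IP reads (27.7% to 84.8%). It was 3 of 7 total reads (9.9% to 81.6%) of the same lengths, so that a difference could not be seen at this depth.

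The other strand of the let-7 hairpins was scarce in total small RNA. The 3p strands, recognised by their known first bases, had 126 reads there, against 40253 of the 5p strands. All 126 were 20 to 23 nt long, lengths that the MARWI-IP file does not list, so its 0 reads of these strands say nothing of their recovery with MARWI. let-7d-3p accounted for 79 of them and let-7a-3p for 20. let-7f-2-3p had 10, and none of the remaining 3p strands had more than 5. The 3p strand was 8.18% (6.53% to 10.1%) of let-7d reads and 0.119% (0.0876% to 0.159%) of the reads of the other let-7 miRNAs and miR-98. let-7d is also the relative whose 5p strand differs from the members at its first base (T1A). A link between this base and the strand shares was not tested.

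RNA-seq of the tissue gave the setting in which let-7 is made. RNA of late germ cells was abundant: 4 of 5 spermatid markers had an entry, led by the protamine PRM1 at 7177 RPKM (reads scaled to transcript length and library size) and TNP1 at 1678 RPKM. The lowest of them was SPACA1 at 48.9 RPKM. Of 3 spermatocyte markers only SYCP1 had an entry, at 49.9 RPKM. Genes of somatic cells were detected, with the Leydig cell hormone INSL3 at 404 RPKM, the Sertoli cell gene CLU at 68.0 RPKM and the muscle actin ACTA2 at 19.4 RPKM. Another Leydig cell marker, STAR, stood lower, at 4.91 RPKM. AMH, of immature Sertoli cells, stood at 0.148 RPKM and the spermatogonial receptor KIT at 0.290 RPKM. The blood marker HBB stood at 38.1 RPKM. The endothelial markers PECAM1 and VWF had no named entry. The same held for the listed markers ACRV1, SYCP3, TEX101, UTF1, FGFR3, SOX9, CYP17A1, MYH11, HBA1 and PTPRC. The share of let-7 from each cell type cannot be told in bulk tissue, where fewer cells and less RNA per cell look alike.

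Genes of miRNA processing were detected as a group. Of 10 listed, 8 had an entry and all 8 reached 1 RPKM, against 63.8% of all 12199 named protein-coding genes, and their median was 7.30 RPKM, against 2.44. XPO5, the exporter of precursor hairpins, had 12.9 RPKM and DGCR8, the partner of the nuclear enzyme DROSHA, 10.7. DICER1 had 9.91, and AGO4 8.96. DROSHA and AGO1 had no named entry, which does not show that they were silent. Among let-7 regulators LIN28B, which blocks let-7 maturation, was at 0.135 RPKM, and LIN28A had no entry. KHSRP, known to promote let-7 processing, had 6.32 RPKM and TUT4, the uridylase that acts with LIN28A, 3.04. Only these 3 of 9 listed regulators had an entry.

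Of 23 genes known as let-7 targets in mammals, 13 had an entry and 10 of these reached 1 RPKM, against 63.8% of all 12199 named protein-coding genes. Their median was 3.25 RPKM, against 2.44 RPKM over those genes. The highest were the cell cycle phosphatase CDC25A at 26 RPKM, DICER1, TGFBR1 at 9.35 and CDC34 at 7.99. Those under 1 RPKM were HRAS at 0.865, the growth regulator MYC at 0.809 and LIN28B. HMGA2, a target known from embryonic tissue, had no entry. With 1 column and no change in let-7 to compare, these levels do not bear on regulation by let-7.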

How the data were processed

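The deposited small RNA files give read counts per distinct sequence, not normalized and without genome positions. Total small RNA lists 20 to 51 nt and MARWI-IP 24 to 33 nt. Per the labels' protocols, MARWI was precipitated from testis lysate, total RNA was size-fractionated on a gel, and both libraries were made with NEBNext small RNA reagents. The deposited RNA-seq file gives RPKM per transcript, as computed by the authors, and transcripts of 1 gene were summed here. Bowtie, TopHat and Cufflinks are named, without role or version, per the submitters' processing notes. The trimming, the mapping rule and the genome build behind the files are not stated in the labels.

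No miRNA table was at hand. Each member's 18-nt start was therefore the read start in total small RNA that holds the let-7 seed and the bases known to mark that member in human. Exactly 1 start fitted each. The 3p strands were counted by their first 9 bases and 3 to 6 further ones. The bases that mark the 3p strands for let-7a and let-7f-1, the background minimum and the miRNA-length class were set after seeing the data. The planned comparison with hairpins and the naming of miRNAs with a similar length profile need such a table and were not made.

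Counts have exact Poisson, shares exact (Clopper-Pearson) and ratios exact binomial 95% intervals. A count of 0 allows up to 3.69 reads. The floor was set at 3 reads, and no fold is given where neither count exceeds it. Ratios use all reads of 24 to 33 nt as denominator in every length class, and the limit of 0.5 describes a ratio without a test. Background ends needed 10 reads over both files. Counting was tested on simulated reads. Gene names came from the table, from RefSeq assembly calJac240_pri and from a list of gene IDs and symbols. Named items were all members, their relatives, and of each gene list the 4 highest and those under 1 RPKM. RNA-seq markers and other genes beyond these were named after their values were seen. Members and lists were chosen with earlier results of these data known. Alternatives were other match lengths, 1 mismatch, shifted starts, sequences read once left out, distinct sequences, other denominators and other lengths. Counts and intervals were computed in Python 3.11.15 with pandas 2.3.3, scipy 1.17.1 and numpy 2.4.6, and plots drawn with matplotlib 3.10.9.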

Additional observations from a re-analysis of the deposited data

Results flagged for a closer look

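Reads that start 1 base before the mature 5′ end lie outside the matching rule, and in 3 members they exceeded the floor of 3 reads. let-7g-5p had 87 such reads in total small RNA, all with C as the added base, equal to 1.02% of its exact reads. let-7a-5p had 84, of which 72 added G before a read with A at position 19, and 11 added T before the G that marks let-7c-5p. let-7f-5p had 17, of which 16 added A. let-7i-5p had 1 and let-7b-5p had 0. A start 1 base late was rarer, with 13 reads over the 5 members against 189 that started 1 base early. Such a read has its seed moved by 1 base.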

How the results depend on the processing

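The order of the 5 members was kept with 20 bases matched, 1 mismatch, shifted starts and without sequences read once. Of these, matching 20 bases moved the count of 38232 let-7 reads by more than its interval, to 35863, because let-7c-5p is then separate. The intervals of let-7a-5p (9846 reads) and let-7f-5p (9633 reads) then overlapped, so their order was not resolved. At 16 bases let-7a-5p and let-7b-5p, and let-7g-5p and let-7i-5p, share a start, so only their sum could be had. The 22-nt share was 16.2% when each distinct sequence counted once, since few distinct sequences make up each length. The let-7c-5p share was 20.9% over reads that reach base 22, as fewer of its reads are short. Longer forms could not be compared with hairpins. The MARWI-IP to total ratio of 0.284 was 0.612 (0.288 to 1.37) over distinct sequences, an interval that includes 1, 0.0187 at 24 and 25 nt and 1.93 at 26 to 33 nt. It lay between 0.268 and 0.314 under the remaining alternatives, including without let-7a-5p (0.268), which was added after seeing the data. Over distinct sequences the ratio was 0.560 (0.161 to 2.18) for let-7a-5p, 0.933 (0.224 to 5.46) for let-7f-5p and 0.700 for let-7g-5p. Without sequences read once the let-7f-5p ratio of 0.199 was 0.122, and for let-7g-5p no total read was left. No paired analysis was possible because each group is 1 column. Depth limits both length classes: 5 MARWI-IP reads stand behind the ratio at 24 and 25 nt, and 5 total reads behind that at 26 to 33 nt.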
